A study of Mus musculus with 4 samples.

Results

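T and NK cell genes were examined in RNA of hematopoietic stem cells, which had been sorted from the marrow of mice. The 10 genes were taken by symbol from 24016 gene symbols in the deposited tables, and all 10 were present. They comprise the CD3 chain genes Cd3d, Cd3e and Cd3g, the kinase gene Lck, the receptor genes Cd2, Il2rb, Klrd1 and Ncr1, the granule protease gene Gzmb and the chromatin regulator gene Satb1. Where a symbol had several transcripts, the transcript with the highest total count was used. Of the 10 genes, 8 passed the filter on low counts and were tested, and Klrd1 and Ncr1 were not. Gzmb was under the level that the filter asks for, 0.251 CPM in at least 2 libraries, where CPM is the count scaled to a common library total, in both wild-type libraries, so it entered the test through the NHD13 libraries.

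The study compared wild-type (WT) mice with NHD13+ mice, 2 libraries each, all C57BL/6 and 4 months old. The NHD13 transgene encodes a NUP98-HOXD13 fusion protein and is used to model myelodysplastic syndrome. In the NHD13 line in general use the Vav promoter drives the fusion in blood cells, while the labels name no promoter. Cells were lineage-negative, Sca-1 and c-Kit positive, CD34 and Flt3 negative and CD150 positive, and the labels do not list the lineage antibodies. They also do not say whether libraries came from separate animals, so p-values describe only how these samples vary, and that variation may be technical. With 1 transcript per gene the libraries held 35025974 to 48423689 counts, and 3 counts corresponded to 0.0612 to 0.0873 CPM. Stem cell markers were present in all libraries, with Kit at 991 to 1271 CPM and Slamf1, which encodes CD150, at 117 to 143 CPM.

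T cells recognise antigen through a receptor whose signal is carried by the CD3 chains. CD3 gamma and CD3 delta each pair with CD3 epsilon, and these pairs join the antigen-binding chains together with the zeta chain, encoded by Cd247. Lck phosphorylates the tails of these chains, Zap70 docks on them, and Zap70 then phosphorylates the adaptor Lat. NK cells use other receptors, such as NKp46 (Ncr1) and CD94 (Klrd1), and kill with perforin and granzymes, as cytotoxic T cells do. Stem cells of the marrow lie upstream of both lineages.

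Cd3g, Cd3d and Cd3e are neighbours on chromosome 9. In RefSeq (GRCm38.p6, a later build than the mm9 of the counts) Cd3g and Cd3d start 1355 bases apart and point away from each other, and the Cd3e start lies 27825 bases beyond that of Cd3d. The 250 bases before the start are shown for these genes because 2 of them stood high in 1 library and the third, between them, did not. Those of Lck at its downstream start and of Gzmb, which were also high in that library, follow. RefSeq promoters were found for 7 of the 10 genes. Capitals mark matches on either strand to 5 motifs: TGTGGT, bound by RUNX factors, GGAAGT, bound by ETS factors, CAGGTG, the E-box of E2A proteins, CTTTGA, bound by TCF and LEF factors, and AGATAA, bound by GATA factors.
Cd3g, chr9:44980432-44980681, - strand: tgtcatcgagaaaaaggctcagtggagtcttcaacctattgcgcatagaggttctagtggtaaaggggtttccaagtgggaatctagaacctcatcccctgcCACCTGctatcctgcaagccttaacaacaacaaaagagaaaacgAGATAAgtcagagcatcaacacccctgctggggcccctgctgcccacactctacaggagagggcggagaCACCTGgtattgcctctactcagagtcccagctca
Cd3d, chr9:44981536-44981785, + strand: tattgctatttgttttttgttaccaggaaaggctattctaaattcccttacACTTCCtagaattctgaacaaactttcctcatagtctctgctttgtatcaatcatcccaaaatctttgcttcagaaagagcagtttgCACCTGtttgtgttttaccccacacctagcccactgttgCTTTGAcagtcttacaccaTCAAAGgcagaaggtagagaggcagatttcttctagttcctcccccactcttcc
Cd3e, chr9:45009612-45009861, - strand: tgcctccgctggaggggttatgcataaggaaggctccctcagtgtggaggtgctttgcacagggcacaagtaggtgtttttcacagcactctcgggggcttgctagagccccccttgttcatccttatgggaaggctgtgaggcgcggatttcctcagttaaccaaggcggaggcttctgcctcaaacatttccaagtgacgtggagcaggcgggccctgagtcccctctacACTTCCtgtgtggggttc
Lck, chr4:129558373-129558622, - strand: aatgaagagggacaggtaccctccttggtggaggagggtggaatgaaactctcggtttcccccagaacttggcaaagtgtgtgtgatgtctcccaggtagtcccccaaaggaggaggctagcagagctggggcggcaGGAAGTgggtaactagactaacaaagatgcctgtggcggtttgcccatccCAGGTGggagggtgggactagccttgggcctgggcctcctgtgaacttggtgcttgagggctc
Gzmb, chr14:56262335-56262584, - strand: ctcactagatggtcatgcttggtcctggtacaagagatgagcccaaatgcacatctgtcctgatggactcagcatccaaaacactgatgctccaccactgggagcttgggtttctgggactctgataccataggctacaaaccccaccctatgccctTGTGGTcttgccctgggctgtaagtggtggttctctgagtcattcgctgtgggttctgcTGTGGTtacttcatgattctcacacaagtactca
The Cd3g window held 2 E-box matches and 1 GATA match. That of Cd3d held 1 ETS, 1 E-box and 2 TCF/LEF matches, and that of Cd3e held 1 ETS match. The Lck window held 1 ETS and 1 E-box match, and that of Gzmb held 2 RUNX matches. Among 32851 windows of the same length, 14.0% had a RUNX match, 19.7% an ETS match, 17.2% an E-box match, 13.8% a TCF/LEF match and 9.99% a GATA match. None of the 5 motifs was present in all 4 windows of the genes that stood high. The motifs were chosen after the counts were seen, and a match describes letters only.

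Among the 10 genes, Cd3e, Cd3g, Lck and Gzmb stood high in NHD13 library 2 and in no other library. Cd3d, Cd2, Il2rb, Klrd1 and Ncr1 were at 1.24 CPM or less in each of the 4 libraries. Satb1 stood low in NHD13 library 1. None of the 8 tested genes was called by edgeR's quasi-likelihood test of NHD13 against WT at an adjusted p of 0.05. Of all 14853 genes, 4.28% were called in either direction. An unadjusted p under 0.05 in that test was reached by 3 of the 8 and by 3983 of the 14853. DESeq2 called 2 of the 8 tested genes, against 17.5% of all genes, and limma-voom 0, against 4.17%.

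**Figure D1:**
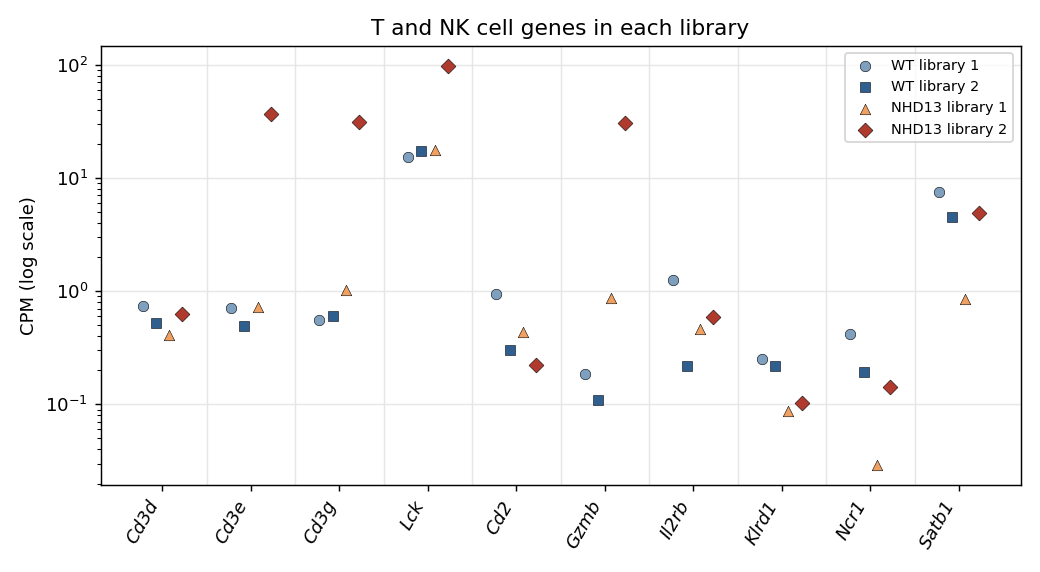
CPM of the 10 genes on a log scale, with 1 point for each of the 4 libraries. Cd3e, Cd3g, Lck and Gzmb lie at 30.3 to 97.3 CPM in NHD13 library 2, apart from the other libraries, while Cd3d, Cd2, Il2rb, Klrd1 and Ncr1 stay at 1.24 CPM or less.

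The CD3 chains differed from one another. Cd3e, the epsilon chain shared by both CD3 pairs, was at 0.713 and 0.493 CPM in WT, 0.728 in NHD13 library 1 and 36.3 in NHD13 library 2. These values rest on 31, 18, 25 and 1779 counts. The WT libraries and NHD13 library 1 lay close together, and the group ranges were apart by the margin between 0.713 and 0.728 CPM only. Cd3g, the gamma chain, was at 0.552 and 0.602 CPM in WT and at 1.02 and 30.8 CPM in NHD13. Here too 1 library of 4 stood apart. Cd3d, the delta chain, was at 0.736 and 0.520 CPM in WT and at 0.407 and 0.633 CPM in NHD13, with 31 counts in NHD13 library 2, and the groups overlapped.

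NHD13 library 2 exceeded NHD13 library 1 by a factor of 49.9 for Cd3e, with a 95% exact interval of 33.7 to 77.3 that covers counting error only. The factor was 30.2 for Cd3g (21.6 to 43.6). For Cd3d it was 1.55 (0.802 to 3.16), an interval that includes 1 and lies below those of its neighbours. Per kilobase of transcript, the levels in that library were 24.8 CPM for Cd3e, 30.1 for Cd3g and 0.391 for Cd3d. The log2 fold changes of NHD13 against WT were 4.93 ± 1.81 (SE) for Cd3e and 4.78 ± 1.63 for Cd3g, with edgeR adjusted p of 0.175 and 0.156, and DESeq2 called Cd3g (adjusted p 0.0410). Both values depended on 1 library: without NHD13 library 2 they were 0.27 (adjusted p 0.863) and 0.82 (0.540). Cd3d had -0.27 ± 0.58 (adjusted p 0.809).

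Lck, the kinase that starts the receptor signal, differed from the CD3 genes in being above 10 CPM in all libraries. It was at 15.4 and 17.1 CPM in WT, 17.5 in NHD13 library 1 and 97.3 in its pair, NHD13 library 2. The first 3 libraries lay within a narrow range and the fourth stood apart, by a factor of 5.56 (5.11 to 6.07) over NHD13 library 1. The log2 fold change was 1.82 ± 0.80 (edgeR adjusted p 0.231), and 0.11 without NHD13 library 2 (adjusted p 0.733). The tables list 3 Lck transcripts, of which NM_010693 and NM_001162432 begin at the downstream (proximal) start and NM_001162433 begins at a start 15269 bases upstream. Reads of shared exons were counted in each, so only their differences bear on the first exons. In NHD13 library 2 they had 4768, 4767 and 4693 counts, a surplus of 75 for NM_010693 over NM_001162433. In the other libraries that difference was -2 and 2 in WT and 4 in NHD13 library 1. The larger difference was thus in the library with the highest Lck level.

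Gzmb, a serine protease of cytotoxic granules that mast cells also make, was at 0.184 and 0.109 CPM in WT (8 and 4 counts), 0.873 in NHD13 library 1 (30 counts) and 30.3 in NHD13 library 2 (1485 counts). Both NHD13 libraries were above both WT libraries, by unequal amounts, and the NHD13 libraries differed by a factor of 34.7 (24.2 to 51.6). The log2 fold change was 6.69 ± 1.93 (edgeR adjusted p 0.118; 0.00386 by DESeq2), and without NHD13 library 2 it was 2.55 (adjusted p 0.248). Its neighbour Gzmc, a gene of close sequence, had 2 counts in all. Perforin, encoded by Prf1, with which granzymes enter a target cell, was at 0.109 to 0.582 CPM over the 4 libraries, and 19 counts in NHD13 library 2. Per kilobase, Gzmb was at 21.1 CPM in that library, near Cd3e (24.8) and under Lck (44.5).

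The receptor genes of NK cells and Cd2 were at low levels. Cd2 encodes an adhesion receptor of T and NK cells whose mouse ligand is CD48. It was at 0.943 and 0.301 CPM in WT, with 0.437 and 0.224 in NHD13, and the groups overlapped (log2 fold change -0.93 ± 0.81, edgeR adjusted p 0.515). Il2rb, the receptor chain shared by IL-2 and IL-15, was at 1.24 and 0.219 CPM in WT and 0.466 and 0.592 in NHD13. Its WT libraries were farther apart than its NHD13 libraries, and its log2 fold change of -0.47 ± 0.90 (adjusted p 0.781) turned to 1.26 without WT library 1. That of Cd2 turned to 0.11 without the same library. Klrd1 had 11 and 8 counts in the WT pair and 3 and 5 in the NHD13 pair. Ncr1, a receptor that defines NK cells, had 18 and 7 counts in the WT pair and 1 and 7 in the NHD13 pair, and the ratio of NHD13 library 2 to library 1 was 4.91 with an interval of 0.631 to 221. Neither passed the filter, so neither was tested. Ncr1 had the same count in WT library 2 and NHD13 library 2, and its CPM of 0.192 and 0.143 there differed through the library totals alone.

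Satb1 organises chromatin in thymocytes and is also expressed in stem and lymphoid progenitor cells. It was at 7.47 and 4.52 CPM in WT, 0.844 in NHD13 library 1 and 4.92 in NHD13 library 2. Here NHD13 library 1 was the one apart, on the low side, and NHD13 library 2 lay within the WT range. The NHD13 libraries differed by a factor of 5.83 (3.95 to 8.89). The log2 fold change was -1.05 ± 0.83 (edgeR adjusted p 0.475), with -0.28 without NHD13 library 1 and -2.82 without NHD13 library 2 (adjusted p 0.785 and 0.0692).

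The spread within NHD13 was set against the difference between the groups on the log2 CPM scale with a prior count of 2. For 8 of the 10 genes the NHD13 libraries differed from each other by more than the group means did, against 40.3% of all 14853 genes tested. Klrd1 and Ncr1 were the 2 exceptions, and they are also the 2 genes under the filter. The WT libraries differed by more than the group means for 3 of the 10 genes (Cd3d, Cd2 and Il2rb), against 36.1% of all genes. These 3 are also among the 8, at few counts. Their ratios of NHD13 library 2 to library 1 had 95% intervals that include 1 (0.802 to 3.16, 0.214 to 1.20 and 0.668 to 2.51). Over the 10 genes the median absolute difference was 1.88 within NHD13, 0.52 within WT and 1.39 between groups. The same medians over all genes tested were 0.22, 0.18 and 0.29. NHD13 library 2 was more than 4-fold above library 1 for 5 of the 10 genes (Cd3e, Cd3g, Lck, Gzmb and Satb1), against 1.89% of all genes. The difference was 5.55 for Cd3e, 5.04 for Gzmb and 4.85 for Cd3g, and 6, 12 and 16 of the genes tested had a larger one. Lck and Satb1 had 2.47 and 2.48.

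**Figure D2:**
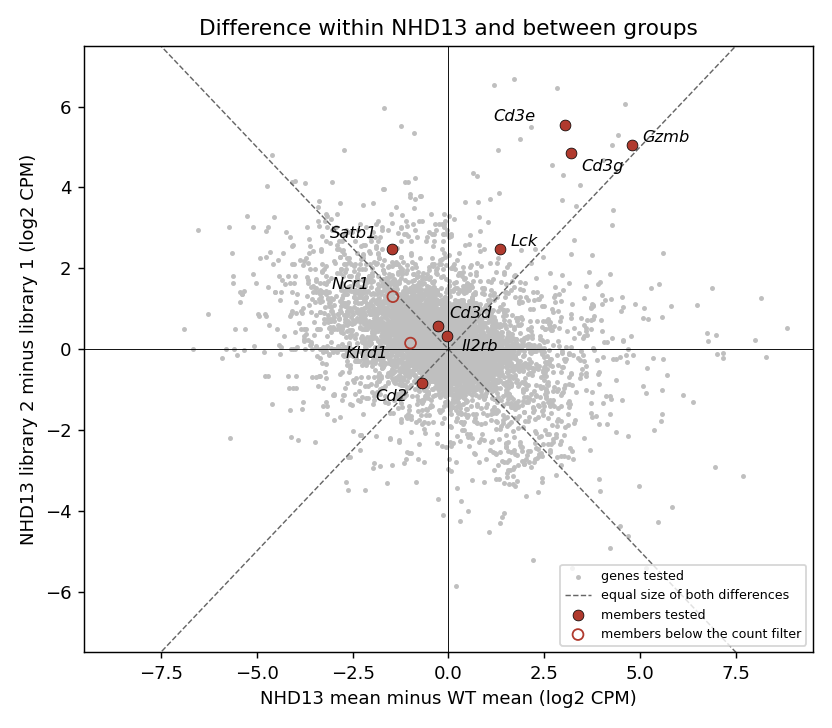
Difference between the NHD13 libraries (library 2 minus library 1, log2 CPM) against the difference between group means (NHD13 minus WT, log2 CPM). Grey points are the 14853 genes tested, within the limits of the axes, and red points are the 10 genes. Dashed lines mark where both differences are of equal size. Mmp13, at 7.98 on the vertical axis, lies above the frame. Cd3e, Cd3g, Gzmb, Lck and Satb1 lie between 2.47 and 5.55 on the vertical axis, and 8 of the 10 genes lie in the upper or lower sector between the crossed lines, where the spread within NHD13 is the larger.

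The groups did not overlap for 4 tested genes, all higher in NHD13 (Cd3e, Cd3g, Lck and Gzmb). Over all genes tested, 60.4% did not overlap in either direction and 30.1% were higher without overlap. The 2 untested genes, Klrd1 and Ncr1, did not overlap either and were lower in NHD13, at 18 counts or fewer. With NHD13 library 1 left out, the log2 fold changes were 5.91 for Cd3e, 5.74 for Cd3g, 2.59 for Lck and 7.65 for Gzmb. The NHD13 group is then library 2 alone, the library in which these 4 genes had been seen to stand high. That edgeR called these 4 genes higher in that fit therefore says nothing of its own. Over all genes that fit called 0.765% higher. It has 1 NHD13 library, which is assumed to vary as the WT libraries do. With NHD13 library 2 left out edgeR called none of the 10 genes, against 6.35% of all genes, with 1 of the 9 tested at an unadjusted p under 0.05.

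Other T cell and NK cell genes were read from 7 pathway lists with 135 genes in all, of which 108 were tested. T cell receptor signalling is 1 of these lists. In all, 10 were called higher (9.26%, against 2.07% of all genes tested) and 4 lower (3.70%, against 2.22%), with a median log2 fold change of 0.53 against 0.0013 over all genes. Genes near absent in WT entered the test through the NHD13 libraries, which favours rises among them. Of the list genes called higher, only Sh2d1b1 was under the filter level in both WT libraries. When either WT library was left out, edgeR called no gene, in the lists or elsewhere. With a group cut to 1 library, the other group alone gives the spread. A second set was defined by the NHD13 libraries alone: 15 of the 108 (13.9%, against 1.89% of all genes) were more than 4-fold higher in NHD13 library 2 than in library 1, and 4 (3.70%, against 1.28%) more than 4-fold lower. A wide gap within NHD13 raises the spread that the edgeR test uses: 0 of the 281 genes chosen in this way among all genes were called between the groups, so the absence of calls among the 15 says nothing of its own. The genes named below for this second set were chosen after their values were seen.

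In receptor signalling, 7 of 20 tested genes were more than 4-fold higher in NHD13 library 2 than in library 1 and 0 lower. Cd247, the zeta chain, was at 6.60 and 7.03 CPM in WT, 3.61 in NHD13 library 1 and 18.8 in NHD13 library 2. Zap70, the kinase that binds phosphorylated CD3 and zeta tails, had 18 and 0 counts in the WT pair and 15 and 607 in the NHD13 pair. Themis, a thymocyte selection gene, had 19 and 1 counts in the WT pair and 21 and 1271 in the NHD13 pair. Trat1, an adaptor associated with the receptor, reached 11.1 CPM in NHD13 library 2 and was at 0.291 CPM or less elsewhere. Zap70, Themis and Trat1 shared with Cd3e a single high library, while Cd247 was also lower in NHD13 library 1 than in WT. Skap1 (37.3 CPM in NHD13 library 2), Sh2d2a (6.02) and Rasgrp1 (2.22) complete the 7. The called genes of the list were Lat (63.5 and 64.5 CPM in the WT pair, 105 and 99.6 in the NHD13 pair; log2 fold change 0.68 ± 0.09, edgeR adjusted p 0.0350) and the kinase gene Fyn (1.05 ± 0.15, adjusted p 0.0373), both higher in both NHD13 libraries. The list's most abundant genes, Ptprc, Lcp2 and Prkcq, were expressed in all libraries at 373 to 499, 266 to 346 and 52.9 to 123 CPM and were not called.

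Among T cell surface genes, 3 of 17 tested passed 4-fold in the same direction. Cd6 had 16 and 0 counts in the WT pair and 13 and 1405 in the NHD13 pair, a factor of 75.8 (44.2 to 143) between the NHD13 libraries. Cd5, an inhibitory receptor of T cells, was at 9.51 CPM in NHD13 library 2 and at 0.437 CPM or less elsewhere. Il7r, the receptor chain of IL-7, was at 14.4 CPM there and at 0.815 or less elsewhere. The coreceptor genes did not share the pattern: Cd4 was at 2.51 and 1.81 CPM in WT and 1.37 and 1.69 in NHD13, and Cd8a had 4 and 0 counts in the WT pair and 0 and 5 in the NHD13 pair. Cd69, an activation marker also found on other blood cells, was the one called, higher at 410 and 258 CPM in the NHD13 pair, where the WT pair had 19.6 and 37.5 (log2 fold change 3.55 ± 0.41, edgeR adjusted p 0.0275). Cd44 (162 to 252 CPM), Ly6c2 (10.1 to 211) and Cd27 (75.8 to 112) were the other abundant genes and were not called.

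T lineage regulators gave 3 of 16 tested genes past 4-fold. Tcf7, a transcription factor of early T cells, was at 0.759 and 1.07 CPM in WT, 1.22 in NHD13 library 1 and 30.1 in NHD13 library 2. Dntt, the terminal transferase of lymphoid precursors, was at 22.1 CPM in NHD13 library 2 and at 1.66 or less elsewhere. Gata3 differed from both: it was at 72.3 and 78.5 CPM in WT and at 2.50 and 14.9 CPM in NHD13, below WT in both libraries (log2 fold change -3.10 ± 0.81, edgeR adjusted p 0.103). Bcl11b, a factor of T cell commitment, was under the filter with 4 and 6 counts in the WT pair and 2 and 294 in the NHD13 pair, and the NHD13 libraries differed by a factor of 103 (28.3 to 855). Ptcra, the pre-T cell receptor alpha chain, had 6 counts in NHD13 library 2, and the recombinase gene Rag1 had 3. Its partner Rag2 had 0 and 5 counts in the WT pair and 45 and 17 in the NHD13 pair, with more in NHD13 library 1, and was not called (edgeR adjusted p 0.195). Runx3 was called higher, at 33.0 and 22.9 CPM in the NHD13 pair, where the WT pair had 4.85 and 5.09 (2.49 ± 0.24, adjusted p 0.0192). Among abundant genes that were not called, Tox was at 176 CPM in NHD13 library 2 against 74.5 to 85.5 elsewhere, while Ikzf1 (125 to 206 CPM) and Ets1 (56.3 to 77.1) varied less.

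**Figure D3:**
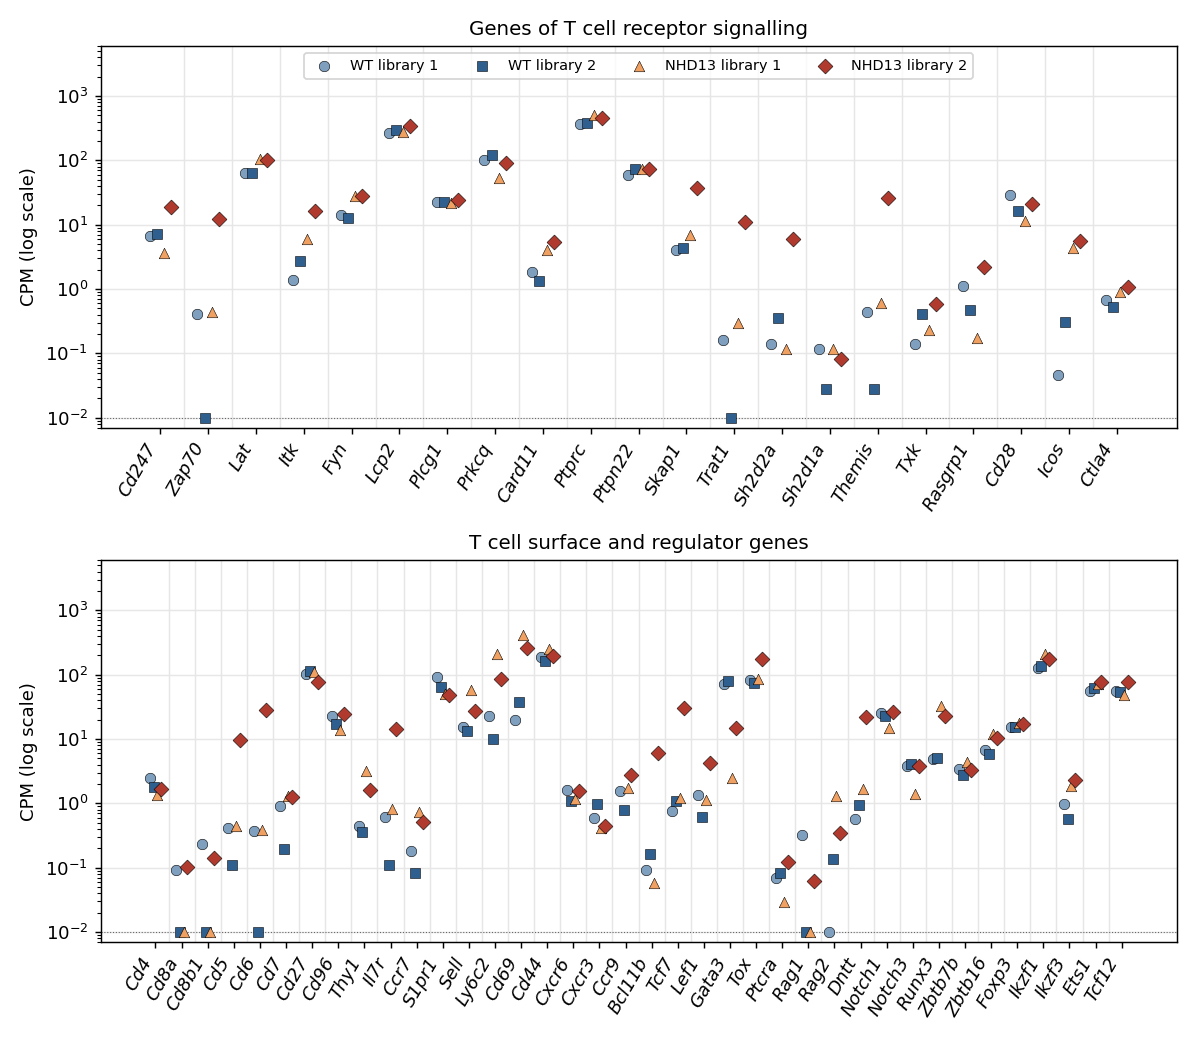
CPM of receptor signalling genes (top) and of T cell surface and regulator genes (bottom) in the 4 libraries, on a log scale, with libraries without a count drawn on the dotted line at the bottom. NHD13 library 2 stands apart for Zap70, Themis, Trat1, Cd6, Cd5, Il7r, Tcf7, Dntt and Bcl11b, whereas Cd4, Cd8a, Ptcra, Rag1 and Rag2 do not follow, with 83 counts or fewer in that library.

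Cytotoxic and NK genes did not share the pattern of Gzmb. Of 13 tested cytotoxic genes, 0 were more than 4-fold higher in NHD13 library 2 than in library 1 and 2 were more than 4-fold lower, Gzma and Ccl3. Nkg7, a granule membrane gene, rose from 18.9 and 18.0 CPM in WT to 153 and 82.2 in NHD13 (log2 fold change 2.67 ± 0.32, edgeR adjusted p 0.0293), and the protease gene Ctsw rose by 0.96 ± 0.15 (adjusted p 0.0416). Srgn, the proteoglycan of secretory granules, was at 912 to 1488 CPM and was not called, nor were Ctsc and Serpinb9. Among 15 tested NK receptor genes Slamf7 (1.99 ± 0.26) and Ly9 (1.37 ± 0.18) rose in NHD13, with adjusted p of 0.0331 and 0.0334. The adaptor gene Sh2d1b1 was called too (adjusted p 0.0454; 0.0772 by limma-voom), but with 5 counts in each WT library and 101 and 70 in the NHD13 pair it entered the test only through NHD13. Klrb1c was at 29.4 to 48.8 CPM in all libraries, and Tyrobp and Fcer1g, signalling chains also used by myeloid cells, were highest in NHD13 library 1 (62.8 and 118 CPM). Tyrobp and Itga2 were more than 4-fold lower in NHD13 library 2 than in library 1, and Klrb1b, with 1 and 14 counts in these libraries, more than 4-fold higher. The 6 Klra genes of the list, close copies that can share reads, were at 0.920 CPM or less. The NK regulators Eomes and Tbx21 had 7 counts or fewer in each library.

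Regulators of NK and innate lymphoid cells contributed the 4 genes called lower, of 11 tested. Among them, Bhlhe40 (log2 fold change -1.80 ± 0.27), Id2 (-1.19 ± 0.14) and Irf2 (-0.62 ± 0.10) fell, with edgeR adjusted p of 0.0415, 0.0297 and 0.0488, while Ikzf2 (42.3 to 108 CPM) was not called. Of 19 tested genes of the common gamma chain cytokine pathway, Il2rg, the common gamma chain that pairs with Il2rb, was called higher (0.61 ± 0.10, adjusted p 0.0474), at 350 and 365 CPM in the NHD13 pair over 219 and 249 in the WT pair. The abundant Jak1, Stat4 and Stat5a were not called. In this list Il7r and Il9r were more than 4-fold higher in NHD13 library 2 than in library 1.

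The label of the 10 genes was set beside cell type markers, although the T and NK cell marker lists hold 9 of the 10 genes. The 11 T cell markers summed to 28.3 and 28.2 CPM in WT, 25.6 CPM in NHD13 library 1 and 202 CPM in the other NHD13 library. Cd3e, Cd3g and Lck make up most of the last sum. The 6 T cell markers outside the 10 genes summed to 9.93 and 9.11 CPM in WT and to 5.47 and 36.2 CPM in the NHD13 pair, and 2 of the 3 tested, Cd247 and Cd5, were more than 4-fold higher in NHD13 library 2 than in library 1. Of the defining genes, Cd3d, Cd2, Cd4 and Cd8a overlapped or lay lower in NHD13, and both Cd8a and Cd8b1 were without a count in WT library 2 and NHD13 library 1. The 9 NK cell markers summed to 42.5 and 45.8 CPM in WT and 31.8 and 80.4 in NHD13, with Klrb1c and, in NHD13 library 2, Gzmb as most of the sum and Klra8 without a count in NHD13. Without the 10 genes the NK cell sum was 40.4 and 45.1 CPM in WT and 30.4 and 49.2 in NHD13. The genes that stood high were a part of the T cell genes plus Gzmb. Of the NK receptor genes, Ncr1 and Klrd1 had 18 counts or fewer in each library, while Klrb1c was at 29.4 to 48.8 CPM. Fewer cells of a type and less RNA per cell cannot be told apart in such bulk samples.

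Markers of other cells also differed between the NHD13 libraries. The 9 late neutrophil markers summed to 2774 CPM in NHD13 library 1. They summed to 367 CPM in NHD13 library 2 and to 320 and 276 CPM in the WT pair, with 8 of 9 more than 4-fold lower in library 2 than in library 1. The 7 mast cell and basophil markers summed to 538 and 410 CPM in the NHD13 pair over 249 and 238 in the WT pair, mostly from Gata2, which stem cells also express, and without it to 139 and 118 CPM over 26.1 and 8.05. Fcer1a, the one called gene of that list, was lower in NHD13, with 40 and 62 counts in the WT pair and 0 and 1 in the NHD13 pair (edgeR adjusted p 0.0444). In the same list, Cpa3 had 107 CPM in NHD13 library 2 over 21.3 in library 1, while Ms4a2, at 4.45 and 111 CPM, was in the opposite order. B cell markers (77.2 to 105 CPM) and plasmacytoid dendritic cell markers (61.9 to 79.5 CPM) had sums within a narrower range. Cd79b made up most of the B cell sum at 64.8 to 76.2 CPM, while Cd79a was called higher, at 11.3 and 14.1 CPM in the NHD13 pair over 4.60 and 3.50 in the WT pair (log2 fold change 1.65 ± 0.26, edgeR adjusted p 0.0454). The 8 stem cell markers summed to 2139 and 2580 CPM in the NHD13 pair, under 3501 and 3632 in the WT pair. The part of any of these cell types in the T and NK cell values was not tested.

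**Figure D4:**
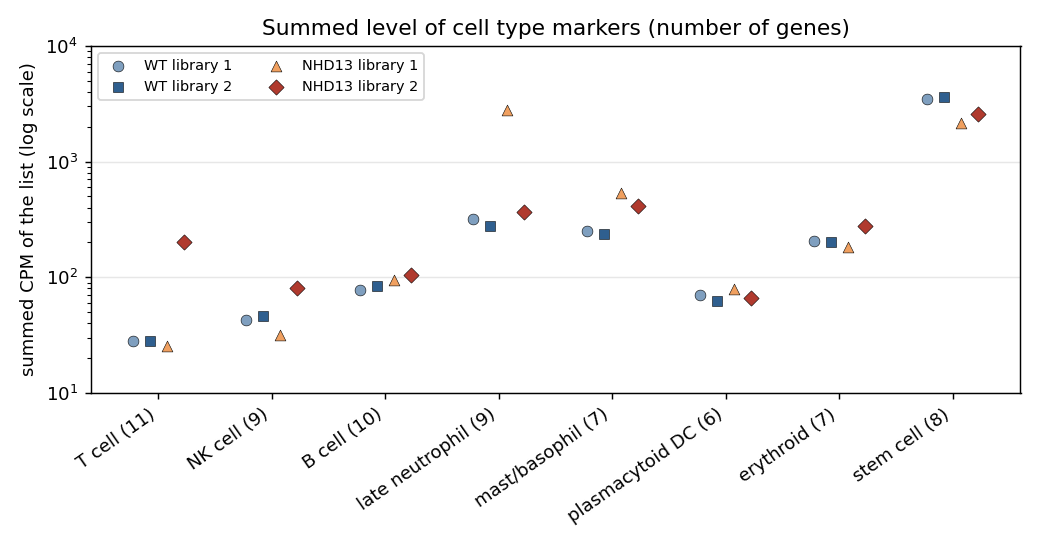
Summed CPM of 8 sets of cell type markers in the 4 libraries, on a log scale, with the number of genes in brackets. The T cell sum, which holds 5 of the 10 genes, is highest in NHD13 library 2 (202 CPM against 25.6 to 28.3), and the late neutrophil sum is highest in NHD13 library 1 (2774 CPM against 276 to 367).

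Genes with the most similar pattern over the 4 libraries were sought among 9715 genes of at least 10 CPM in some library, by the Euclidean distance between centred log2 CPM profiles. The reference was the mean profile of the 7 tested genes other than Satb1, which joins steep and flat genes and so is of intermediate height (2.10 in NHD13 library 2, -0.47 in NHD13 library 1, -0.46 and -1.17 in WT). The nearest were Fap (distance 0.34), Skap1 (0.63), Ndnf (0.78), Neo1 (0.90), Il10ra (0.91), Podnl1 (0.92), Htra3 (0.98) and Stxbp6 (1.01). Fap, a cell surface protease gene known from fibroblasts, was at 5.20 and 2.85 CPM in WT and 5.62 and 24.4 in NHD13. Skap1 is an adaptor of T cells, and Il10ra is the receptor chain of IL-10, at 33.9 CPM in NHD13 library 2 against 6.23 to 8.58 elsewhere. The list thus held genes of T cells beside genes known from other tissues.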

How the data were processed

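Per the labels' protocols, cDNA was made from sorted cells with a SMARTer kit for low input, and both ends of the fragments were read. Bowtie 0.12.2 and the build mm9 are named in the submitters' processing notes. How reads were counted, and whether strand was used, is not given in the sources used here. Overlapping genes and close copies can therefore share reads. The authors deposited raw counts for 33018 RefSeq transcripts.

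The members and gene lists were chosen with earlier results of these data known. Counts were tested over all genes with edgeR 4.0.16 in R 4.3.3 (default low-count filter, TMM scaling, robust quasi-likelihood test, Benjamini-Hochberg adjustment, threshold 0.05), and the test was checked on simulated counts. The standard error is the log2 fold change divided by the square root of F. CPM use TMM-scaled totals. Lengths came from GENCODE M21 by RefSeq accession. Ratios between libraries carry exact binomial 95% intervals. Named genes were all 10 members, up to 4 genes of highest CPM per list, every called list gene except 1 that is not reported here, and the 8 nearest patterns; genes past 4-fold within NHD13, marker genes and genes at few counts were named after their values were seen. Alternatives were other scalings and filters, DESeq2 1.42.0, limma-voom (limma 3.58.1), summed transcripts, a replicate block and leaving out each library.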

Additional observations from a re-analysis of the deposited data

How the results depend on the processing

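Over all genes edgeR called 636, against 1138 without a filter, 1066 with at least 1 CPM in both libraries of a group, 2604 by DESeq2, 402 with summed transcripts and 107 with the replicate number as a block; leaving out 1 library gave 0 to 990. Of the 10 genes 0 were called, against 2 by DESeq2 (Cd3g and Gzmb) and 0 to 4 with 1 library left out. Of the pathway lists 14 genes were called, against 40 by DESeq2, 8 with summed transcripts and 1 with the replicate block. When either WT library was left out, none was called, over all genes or in the lists. With 1 library left out, log2 fold changes turned sign for Cd3d (-0.62 to 0.020; above 0 without WT library 1, at 0.00028, or NHD13 library 1), for Cd2 (-1.52 to 0.11; above 0 without WT library 1) and for Il2rb (-1.22 to 1.26; above 0 without WT library 1). For the other tested members the direction held in every alternative run. The count of members whose NHD13 libraries differed by more than the group means was 8, and 9 with a prior count of 0.5. Same-numbered libraries deviated with a correlation of -0.21, and the main test did not pair them. With 2 libraries a group this value cannot show whether the numbers mark a shared day or batch. With crossed numbers as a block, chosen after seeing the data, 647 genes, 0 members and 20 list genes were called.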

Other observations

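The 20 genes tested with the largest difference of NHD13 library 2 over library 1 held 3 of the 10 genes (Cd3e, Gzmb and Cd3g) and 6 genes of the T cell and NK cell lists (Cd6, Themis, Sh2d2a, Trat1, Zap70 and Tcf7). The first 4 of the 20 were outside the lists. Mmp13, a collagenase gene, was at 12.3 CPM in NHD13 library 2, 0.437 in WT library 1 and without a count in the other libraries. Hbb-y, an embryonic globin gene, was at 5.0 CPM in NHD13 library 2. Arpp21, a gene known from neurons and thymocytes, was at 14.5 CPM in that library and at 0.253 or less elsewhere. These genes were named after their values were seen.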
